A study of Mus musculus with 38 samples.

Results

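The promoters described here drive genes that move calcium into and out of the sarcoplasmic reticulum of the soleus muscle: the SERCA pumps *Atp2a1* and *Atp2a2*, their inhibitors *Sln* and *Pln*, the calcium stores *Casq1* and *Casq2*, the cytosolic buffer *Pvalb*, the release channel *Ryr1* and the junction proteins *Jph1* and *Trdn*. A CAGE cluster was taken when its highest position lay within 500 bp, on the same strand, of a GENCODE vM21 annotated 5′ end of one of these 10 genes. This gave 14 of the 10819 clusters, belonging to 9 genes. *Pln* (phospholamban) had no cluster by this rule and is not analysed here.

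Muscle contracts when calcium leaves the sarcoplasmic reticulum through the ryanodine receptor and relaxes when SERCA pumps it back at the cost of ATP. Sarcolipin binds SERCA and lowers the calcium carried per ATP, so that ATP is spent and heat is released, and it is known for this role in muscle thermogenesis. Calsequestrin holds calcium inside the reticulum next to the release channel, and triadin and the junctophilins keep channel, store and T-tubule membrane together. The soleus is a postural muscle of mixed slow and fast fibers. *Atp2a2* and *Casq2* are the isoforms of slow fibers and heart, and *Atp2a1*, *Casq1* and *Pvalb* are typical of fast fibers.

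Each library came from the soleus of 1 young adult male C57BL/6J mouse and was made by nAnT-iCAGE, which reads capped RNA 5′ ends without amplification. In experiment #1, 4 Pre mice fed ad libitum were sampled on day 1, 8 Mid mice on day 2 after food removal and with torpor, and 4 Post mice on day 3 after food was returned. A further 4 HiT mice were kept at high ambient temperature, 4 Fed mice kept their food, and 4 Dep mice were touched to keep them out of torpor, all sampled on day 2. Experiment #2 was a separate set of 2 Pre, 5 Mid and 3 Post mice. Its Post libraries shared a sequencing lane with Mid 13, and the Pre and other Mid libraries shared another. There a difference of Post from Pre cannot be told apart from lane, and one of Post from Mid only through Mid 13. The study's methods name a NextSeq or a HiSeq platform for the 2 experiments, so their levels may differ by platform as well as by mice. The sources disagree on food: the study's methods describe HiT mice as fasted and Fed mice as fed in the cool, the design text gives HiT mice food, and a label of the Fed libraries reads starvation. HiT and Fed therefore differ from Mid by temperature or food as well as by torpor, and the Mid mice were sampled in a state that swings between low and higher metabolism. Pre and Post also differ from Mid by food and by the day of sampling as well as by torpor. One or both soleus muscles were used for a mouse, depending on the RNA needed.

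Tags in clusters ranged from 18257657 to 39176649 per library in experiment #1 and from 9359994 to 20914855 in experiment #2. Levels below are CPM, the tags of a promoter relative to all tags of its library after TMM scaling, and because each capped RNA gives 1 tag whatever its length, they can be compared between genes. The 9 main promoters rested on 375 to 388466 tags per library and the 5 minor clusters on 36 to 738. Differences are log2 fold changes of the second group minus the first, with SE, from the quasi-likelihood test of edgeR, and FDR is the Benjamini-Hochberg value over all clusters tested, with a threshold of 0.05. Slow fiber markers (8 of 8 genes with a cluster) summed to between 14220 and 23500 CPM and fast fiber markers (10 of 10) to between 15990 and 22690 CPM in experiment #1. For experiment #2 these lists summed to 22760 to 34340 and 29320 to 40130 CPM. All 38 libraries therefore held both kinds of fiber. Of 6 heart markers, 3 had a cluster, together at 12.4 to 38.03 CPM, and neither satellite cell marker had one. In whole muscle, fewer cells of a type and less RNA per cell cannot be told apart.

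*Sln* started at chr9:53850131-53850327 on the plus strand of mm10, with its peak 85 bp downstream of the annotated 5′ end and inside exon 1 of Sln-201. The main *Atp2a1* promoter was at chr7:126462777-126463836, and that of *Atp2a2* at chr5:122500852-122502480 with the peak in exon 1 of Atp2a2-201, both on the minus strand. *Casq1* was at chr1:172219272-172220354 on the minus strand, and *Casq2* at chr3:102086341-102086892 on the plus strand with the peak in exon 1 of Casq2-201. *Pvalb* was at chr15:78206317-78206570 and *Ryr1* at chr7:29124964-29125245, both on the minus strand. *Jph1* was at chr1:17097213-17098074 on the minus strand and *Trdn* at chr10:33083109-33083788 on the plus strand, each with its peak in the first exon. The peaks of *Atp2a1*, *Casq1* and *Ryr1* lay 2 bp upstream of an annotated 5′ end, and that of *Pvalb* 4 bp upstream.

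RefSeq promoters (mm10) that span the CAGE start were found for 4 of these genes, and 121 bases of each are shown to let the start sites of a pump, a store, a buffer and the release channel be compared. All are minus strand genes, written 5′ to 3′, and the capitals mark the base before the start and the start itself after moving the deposited peak 2 bases downstream. The stretches are chr7:126463088-126463208 for *Atp2a1*, chr1:172219848-172219968 for *Casq1*, chr15:78206382-78206502 for *Pvalb* and chr7:29125132-29125252 for *Ryr1*.
Atp2a1: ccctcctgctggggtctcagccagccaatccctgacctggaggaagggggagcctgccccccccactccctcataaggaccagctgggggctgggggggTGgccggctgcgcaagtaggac
Casq1: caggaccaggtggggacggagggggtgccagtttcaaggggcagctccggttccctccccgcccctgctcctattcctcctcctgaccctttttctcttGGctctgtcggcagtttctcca
Pvalb: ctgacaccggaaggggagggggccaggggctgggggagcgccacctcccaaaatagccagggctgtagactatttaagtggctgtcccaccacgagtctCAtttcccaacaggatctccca
Ryr1: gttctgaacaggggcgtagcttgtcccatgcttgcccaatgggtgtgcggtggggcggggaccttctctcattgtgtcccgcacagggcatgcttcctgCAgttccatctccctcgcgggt

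The start of *Pvalb* and of *Ryr1* was a CA step, that of *Atp2a1* a TG step, and that of *Casq1* a GG step. The GC content of the stretches was between 60.3% (*Pvalb*) and 70.2% (*Atp2a1*). None of the 4 promoters (300 bases, both strands) held TATAAA, which occurs in 13.6% of 32851 RefSeq promoters, a MEF2-like sequence (CTA and TAG with 4 bases between, 3.69%) or ACGTCA (7.51%). The E-box CANNTG (72.3% of promoters) was found in *Atp2a1* and, at 2 places, in *Casq1*, and GGAAA, the core of NFAT sites (61.3%), once each in *Atp2a1* and *Pvalb*.

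The first question was whether these promoters changed between Pre and Mid, or between Mid and Post. Both calsequestrin promoters were called lower in Mid than in Pre and Post, in both experiments. The pumps, the release channel and triadin passed the test in neither step of either experiment. Food removal and torpor came together in Mid, and the part of each was not tested. Mean *Casq2* in experiment #1 was 71.7 CPM in Mid, 76.9 in Dep, 78.6 in Fed and 120 in HiT. Mean *Casq1* was 636, 648, 887 and 619 CPM in the same order. Neither differed between Mid and Dep by the test (*Casq2* 0.10, FDR 0.70, and *Casq1* 0.03, FDR 0.93). In experiment #1, 2 of the 14 clusters were called from the Pre to Mid, both down, with 30.2% of all tested clusters called in either direction and 14.8% down. Between Mid and Post 2 rose and 1 fell, with 35.0% of all clusters called. Between Pre and Post none of the 14 was called by edgeR, with 1.85% of all clusters called, and 2 of them had an unadjusted p under 0.05. DESeq2 called 2 of the 14, and over all clusters 175 up and 135 down.

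In experiment #2, 3 clusters fell from the Pre to Mid (9.74% of all clusters called, 4.44% down) and 2 rose from the Mid to Post (16.4% called, 7.73% up). None was called from the Pre to Post by edgeR (0.111%) or by DESeq2, and 2 had an unadjusted p under 0.05. The change from the Pre to Mid and that from the Mid to Post were also compared between the experiments. In neither case was a member called (0.00% of 10819 clusters), none had an unadjusted p under 0.05, and the likelihood ratio test called none. The median absolute change between Pre and Mid in experiment #1 was 0.14 over the 14 clusters and 0.20 over all clusters. The share of members called was thus below that of all clusters in experiment #1 for both steps, and above it for the fall from the Pre to Mid in experiment #2.

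**Figure D1:**
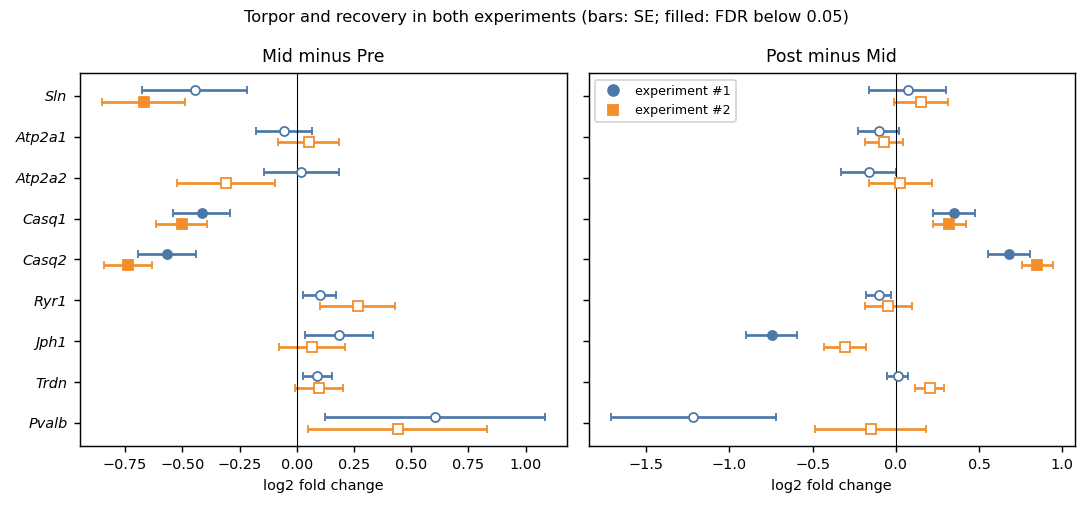
Log2 fold change (x axis, bars SE) of the main promoter of each gene (y axis) from the Pre to Mid (left) and from the Mid to Post (right), with circles for experiment #1, squares for experiment #2 and filled symbols for FDR below 0.05. *Casq1* and *Casq2* lie left of 0 in the left panel and right of 0 in the right panel in both experiments.

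*Casq2*, the calcium store of slow and cardiac muscle, showed the clearest change. In experiment #1 the 4 Pre libraries had 96.5, 102, 125 and 100.5 CPM, the 8 Mid libraries ranged from 50.6 to 90.4 with a median of 72.9, and the 4 Post libraries had 115, 114, 115 and 116. Every Mid library was below every Pre and every Post library, and the Post libraries lay within 2 CPM of each other. *Casq2* fell from the Pre to Mid by 0.57 ± 0.13 on the log2 scale (FDR 0.0013) and rose from the Mid to Post by 0.68 ± 0.13 (FDR 0.00016). The Pre libraries of experiment #2 had 79.2 and 78.9 CPM, the Mid libraries 40.3, 54.1, 49.7, 46.9 and 45.6, and the Post libraries 84.96, 90.8 and 80.8. The groups again did not overlap, and the changes were -0.74 ± 0.10 (FDR 0.0027) and 0.85 ± 0.09 (FDR 0.00020). These 4 calls held whichever single library was left out.

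Smooth muscle markers (3 of 4 genes with a cluster) moved in the same order across Pre, Mid and Post of experiment #1. Their sum was 129 to 161 CPM in Pre, 85.3 to 123 in Mid and 156 to 174 in Post, with Mid below Pre and Post. It was 100.5 to 124 in HiT, 86.9 to 110 in Dep and 133.5 to 160 in Fed. *Casq2* had 93.2 to 145 CPM in HiT, 58.8 to 85.3 in Dep and 66.2 to 91.4 in Fed. Of the 3 smooth muscle genes, 2 fell from the Pre to Mid and rose from the Mid to Post. These were *Acta2* (-0.65 and 0.67), the actin of smooth muscle, and *Smtn* (-1.49 and 1.90), a smooth muscle cytoskeletal protein, while *Myh11*, the smooth muscle myosin, was at 0.15 and -0.22 and was not called. In experiment #2, where *Casq2* again did not overlap between Mid and the other groups, the smooth muscle sums did (186.5 to 239 CPM in Pre, 122 to 238 in Mid and 187 to 230.5 in Post), and *Smtn* alone was called (-1.31 and 1.81). The part of smooth muscle in the calsequestrin changes was not tested.

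*Casq1*, the main calcium store of fast fibers, moved in the same directions from a level several times higher. The Pre libraries of experiment #1 had 727, 911, 882 and 872 CPM, the Mid libraries 442 to 823 with a median of 647, and the Post libraries 866, 849, 797 and 730. Some Mid libraries overlapped with Pre and Post. The change was -0.42 ± 0.13 from the Pre to Mid (FDR 0.013) and 0.35 ± 0.13 from the Mid to Post (FDR 0.032). The Pre libraries of experiment #2 had 1212 and 1029 CPM, the Mid libraries 731, 912, 764, 779 and 767, and the Post libraries 920.5, 1020 and 1022, without overlap between Mid and the other groups. The changes were -0.50 ± 0.11 (FDR 0.019) and 0.32 ± 0.10 (FDR 0.0498).

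These *Casq1* calls stood close to the threshold. In experiment #1 the Pre to Mid call was lost without Pre 2 (FDR 0.0523), and the Mid to Post call without any one of Mid 1, 3 or 5 or Post 1, 2 or 3 (FDR 0.0506 to 0.1004). For experiment #2 the fall was lost without Pre 5 (-0.38, FDR 0.20) or Pre 6 (-0.605, FDR 0.0597), where the lone Pre library was assumed to vary like the others. The rise in experiment #2 was lost without any library other than Mid 10 (FDR 0.0664 to 0.144) and with the sequencing lane as a term (0.36, FDR 0.255), where lane and group overlap except for Mid 13. The direction stayed the same in all these fits.

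*Sln*, which encodes sarcolipin, had 220, 170.5, 223 and 231 CPM in the Pre libraries of experiment #1, between 84.2 and 243 with a median of 149.5 in Mid, and 141, 165.5, 222.5 and 122 in Post. The Mid libraries covered the Pre and Post values. The Pre to Mid difference of -0.45 ± 0.23 (FDR 0.14) and the Mid to Post difference of 0.07 ± 0.23 (FDR 0.84) did not pass the test. The Pre libraries of experiment #2 had 245 and 340 CPM, the Mid libraries 167, 191, 174, 166 and 222, and the Post libraries 178, 259 and 177. Both Pre libraries were above all Mid libraries, and *Sln* fell from the Pre to Mid by 0.67 ± 0.18 (FDR 0.0432), a call lost when either Pre library or any of Mid 9, 10, 11 or 12 was left out (FDR 0.0567 to 0.39). The difference between the experiments, 0.22 ± 0.36, was not called. With all 38 libraries in a single fit and experiment as a term, the Pre to Mid change was -0.54 (FDR 0.0102).

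The SERCA pumps were the strongest promoters of the set. *Atp2a1* (SERCA1, the fast fiber pump) had 9018, 10150, 9471 and 9748 CPM in Pre and 6247 to 10730 in Mid with a median of 9459, and *Atp2a2* (SERCA2, the slow fiber pump) 2345, 1810, 2384 and 2563 CPM in Pre and 1748 to 3506 in Mid with a median of 2024. The groups overlapped for both genes. The Pre to Mid difference was -0.05 for *Atp2a1*, with a 95% interval of -0.29 to 0.18, and 0.02 ± 0.16 for *Atp2a2*. In experiment #2 it was 0.05 for *Atp2a1*, with an interval of -0.21 to 0.31, and -0.31 ± 0.21 for *Atp2a2* (FDR 0.41). A change of *Atp2a1* from the Pre to Mid larger than these bounds was thus not seen, whereas smaller ones could not be told from the spread between mice.

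*Ryr1*, the release channel, had 583, 605, 596 and 687 CPM in Pre, 574 to 730 with a median of 677 in Mid and 617, 647, 651.5 and 551 in Post, with overlapping groups. Its Pre to Mid difference was 0.10 ± 0.07 (FDR 0.32) in experiment #1 and 0.27 ± 0.16 (FDR 0.35) in experiment #2. *Trdn* (triadin), which ties calsequestrin to the channel, changed by 0.09 ± 0.06 (FDR 0.30) and 0.10 ± 0.10 (FDR 0.61). Neither gene was called in any Pre, Mid and Post comparison.

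*Jph1*, a junctophilin that bridges the T-tubule and reticulum membranes, went a different way from the calsequestrins. It had 113, 122, 149 and 128 CPM in Pre, 108 to 201 with a median of 141 in Mid, and 79.8, 100.3, 62.1 and 105 in Post. All Post libraries were below all Pre and all Mid libraries of experiment #1. The promoter fell from the Mid to Post by 0.75 ± 0.15 (FDR 0.00046), and the Pre to Post difference was -0.56 ± 0.17 (FDR 0.10). The Mid libraries of experiment #2 had 106, 115, 115, 139 and 122 CPM and the Post libraries 102, 111 and 77.1, which overlapped, and the difference was -0.30 ± 0.13 (FDR 0.13).

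*Pvalb* (parvalbumin), the calcium buffer of the fastest fibers, varied most between mice. It had 16.8, 52.2, 32.9 and 59.2 CPM in Pre, 21.7 to 169 with a median of 43.3 in Mid and 15.2, 37.5, 25.7 and 26.7 in Post. Its differences of 0.60 ± 0.48 (Pre to Mid) and -1.22 ± 0.50 (Mid to Post, FDR 0.058) did not pass the test. The highest values of experiment #1 were in Mid 2 (169 CPM) and Fed 1 (159 CPM). The same libraries had the highest sums of the 4 genes listed for fast IIb fibers, 5826 and 6956 CPM. The other 26 libraries had 2561 to 4954. The largest part of this list was *Tnnt3*, a fast troponin T, with a mean of 5014 CPM over all 38 libraries. *Actn3* had a mean of 345, *Myh4* 179 and *Mybpc2* 97.7, so that the sum mainly follows *Tnnt3*. In experiment #2, where the sum was 9710 to 13330 CPM, *Pvalb* had 82.8 to 356 CPM. The part of the fiber mix in these values was not tested beyond the fits that had fast fiber markers as a covariate, in which *Pvalb* was higher in Mid than in HiT by 0.97 (FDR 0.0529).

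**Figure D2:**
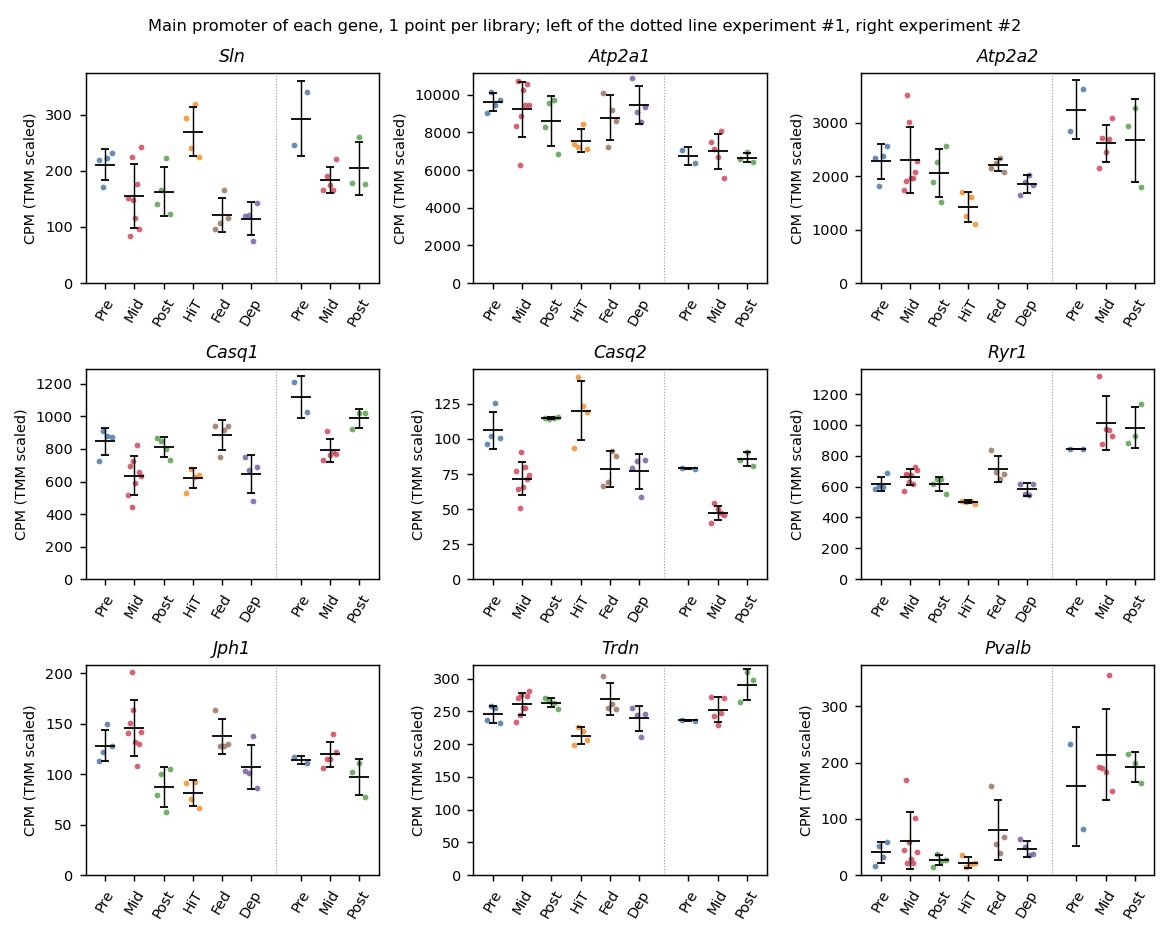
CPM (y axis, TMM scaled within each experiment, from 0) of the main promoter of each gene in every library, by group, with the mean and SD as bars and a dotted line between experiment #1 (left) and experiment #2 (right). *Casq2* of Mid lies under Pre and Post in both experiments, *Sln* is highest in HiT among the groups of experiment #1, and *Pvalb* is spread widely within groups.

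The next question was how the promoters stood in fasted or fed mice that did not enter torpor. The HiT group had the most changes: from the HiT to Mid 6 clusters were higher and 2 lower in Mid, while 41.0% of all clusters were called. Compared with Pre, 6 were lower in HiT and none higher (33.4% of all called, 14.9% down), and from the Fed to HiT 2 rose and 7 fell (43.2% called). The medians over the 14 clusters were 0.27, -0.27 and -0.28, beside 0.018, 0.041 and 0.0068 over all clusters. The comparisons share the HiT libraries and are not independent.

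Pump, channel and junction promoters were all lowest, or among the lowest, in HiT. *Atp2a2* had 1708, 1262, 1618 and 1108 CPM in HiT, below all Pre, Mid and Fed libraries, and was lower than in Pre by 0.68 ± 0.19 on the log2 scale (HiT minus Pre, -0.68, FDR 0.0072). *Ryr1* had 507, 502, 509 and 487 CPM in HiT, below every other library of experiment #1, and its difference from Pre was -0.30 ± 0.08 (FDR 0.0069). *Jph1* had 91.2, 75.1, 92.2 and 66.0 CPM in HiT and fell by 0.66 ± 0.17 from Pre (FDR 0.0041). *Trdn* had 199, 226.5, 220.5 and 206 CPM, also below all Pre, Mid, Post and Fed libraries, with -0.21 ± 0.07 from Pre (FDR 0.030). This last call was lost without HiT 1 or 4 or Pre 2 or 3 (FDR 0.0561 to 0.0865), with fast fiber markers as a covariate (-0.14, FDR 0.0622) and with library size alone as the scaling (-0.38, FDR 0.0692).

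The same 4 promoters were higher in Mid than in HiT, by 0.70 ± 0.17 for *Atp2a2* (FDR 0.0018), 0.40 ± 0.07 for *Ryr1* (FDR 0.00012), 0.85 ± 0.15 for *Jph1* (FDR 9.8e-05) and 0.29 ± 0.06 for *Trdn* (FDR 0.00058). From the Fed to HiT they fell by 0.63 ± 0.19, 0.51 ± 0.08, 0.76 ± 0.17 and 0.34 ± 0.07. These 8 calls held whichever single library was left out. *Jph1* was thus low both in HiT, at 66.0 to 92.2 CPM, and in Post, at 62.1 to 105 CPM.

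*Atp2a1* in HiT had 7411, 7237, 8458 and 7115 CPM, below all Pre libraries, but the difference of -0.34 ± 0.14 did not pass the test (FDR 0.062). *Casq1* had 531, 676, 630 and 639 CPM in HiT, within the Mid range (0.04 from the HiT to Mid, with an interval of -0.21 to 0.29, FDR 0.84), and was lower than in Pre by 0.45 ± 0.15 (HiT minus Pre, -0.45, FDR 0.019). That call was lost without HiT 1 or Pre 2 (FDR 0.0605 and 0.0524).

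*Casq2* and *Sln* were the main promoters with a higher mean in HiT than in Pre, though neither difference was called. *Casq2* had 93.2, 145, 124 and 119 CPM, above all Mid libraries, and was 0.74 ± 0.13 lower in Mid than in HiT (HiT to Mid, -0.74, FDR 4e-05). The *Casq2* difference between Pre and HiT was 0.18 ± 0.15 (FDR 0.37). *Casq2* rose from the Fed to HiT by 0.61 ± 0.15 (FDR 0.0019), a call lost with library size alone as the scaling (0.36, FDR 0.15) and with Fed 1, Fed 2 and Mid 2 set aside (0.41, FDR 0.0961). In HiT the *Casq1* promoter was thus called below Pre and the *Casq2* promoter was not, whereas both were called below Pre in Mid. *Sln* had 294, 241, 318 and 225 CPM in HiT and was lower in Mid by 0.80 ± 0.23 (HiT to Mid, -0.80, FDR 0.0062). The Mid range reached up to 243 CPM and overlapped with HiT. Between Pre and HiT the *Sln* difference was 0.35 ± 0.27 (FDR 0.33), and the libraries overlapped.

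In the Fed libraries *Sln* had 96.0, 107, 166 and 116 CPM and in the Dep libraries 120, 122, 74.3 and 143 CPM, in both cases below all Pre and all HiT libraries. *Sln* was 1.15 ± 0.27 higher in HiT than in Fed (FDR 0.0014) and 1.23 ± 0.27 higher in HiT than in Dep (FDR 0.0013). It fell from the Pre to Dep by 0.88 ± 0.27 (FDR 0.017), a call lost without Dep 3 (-0.72, FDR 0.0659), and the Pre to Fed difference was -0.80 ± 0.27 (FDR 0.0546).

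By mean level in experiment #1, *Sln* was at 269 CPM in HiT, 211 in Pre, 163 in Post, 155 in Mid, 121 in Fed and 115 in Dep. No 2 neighbours in this order passed the test of their difference (FDR 0.26 to 0.84). HiT differed from Post (-0.73 ± 0.27 from the HiT to Post, FDR 0.0430), from Mid, from Fed and from Dep, and Pre differed from Dep. Of all clusters 29.2% were called from the HiT to Post (16.7% down) and 26.5% from the Dep to HiT.

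From the Fed to Mid 1 cluster rose and 1 fell, with 35.2% of all clusters called. *Casq1* had 940.3, 753, 913.5 and 940 CPM in Fed and fell from there to Mid by 0.48 ± 0.13 (FDR 0.0042). The other was the minor *Trdn* cluster, higher in Mid by 0.52 ± 0.15 (FDR 0.0098), a call lost without Fed 1 (0.43, FDR 0.0526). *Casq2* had 66.2, 69.0, 91.4 and 87.9 CPM in Fed, where the Mid libraries reached up to 90.4, and the Fed to Mid difference was -0.13 ± 0.13 (FDR 0.44). Between Pre and Fed none of the 14 was called by edgeR (11.2% of all clusters called), and 4 had an unadjusted p under 0.05. DESeq2 called 2, *Sln* among them (FDR 0.0247), and over all clusters 756 up and 803 down. *Casq2* was close to the threshold (-0.43 ± 0.15, FDR 0.059), and its Fed libraries were all below the Pre libraries.

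Few promoters were called different between the Dep mice, kept from entering torpor by touch, and the Mid mice. From the Mid to Dep none of the 14 clusters was called by edgeR (2.03% of all clusters called) or DESeq2, and 2 had an unadjusted p under 0.05. Compared with Pre, 2 were lower in Dep and none higher (25.8% of all called, 12.1% down). Neutrophil markers (4 of 4 genes with a cluster) summed to 133 CPM in Dep 1 and to at most 1.56 in every other library of experiment #1, and all 4 were called higher in Dep than in Pre and than in Mid. Without Dep 1 the counts were 3 from the Pre to Dep and 0 from the Mid to Dep. Over all clusters 1278 were then up and 1129 down from the Pre to Dep, and 75 and 50 from the Mid to Dep. The 2 promoters called lower in Dep were *Sln*, given above, and *Casq2*, with 79.4, 84.2, 58.8 and 85.3 CPM in Dep, all below Pre, and a difference of -0.47 ± 0.15 (FDR 0.022) that was lost without Dep 3 or Pre 3 (FDR 0.0905 and 0.0910). *Casq1* had 750.5, 672, 479 and 690 CPM in Dep, and its Pre to Dep difference of -0.39 ± 0.15 missed the threshold (FDR 0.053).

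**Figure D3:**
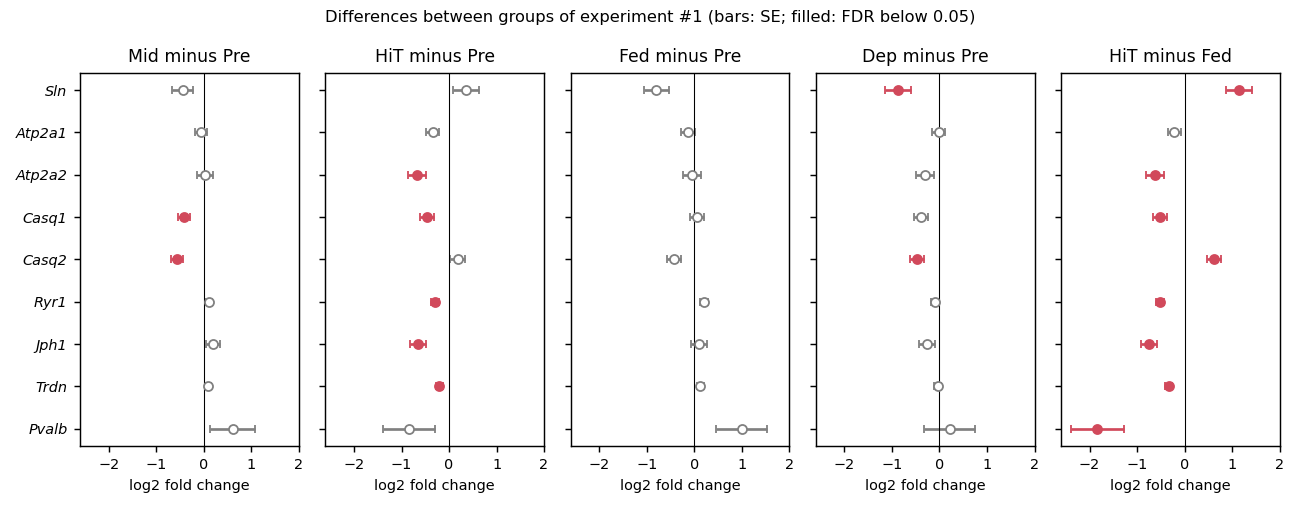
Log2 fold change (x axis, bars SE) of each main promoter (y axis) in 5 comparisons of experiment #1, with filled symbols for FDR below 0.05. *Atp2a2*, *Ryr1*, *Jph1* and *Trdn* are filled on the negative side from the Pre to HiT, and *Sln* and *Casq2* are filled on the positive side from the Fed to HiT.

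In HiT other cell and fiber markers moved as well. Slow fiber markers summed to 14220 to 19130 CPM in HiT (median 15180) and to a median of 20460 in Pre, with 3 of 8 genes down from the Pre to HiT. Macrophage markers (5 of 6 genes with a cluster) summed to 136 to 313 CPM in HiT and to 35.8 to 87.8 in the other libraries of experiment #1, and all 5 rose from the Pre to HiT. Of the fast fiber markers 3 of 10 fell from the Pre to HiT (median -0.30), and of the red blood cell markers 3 of 4 fell (median -0.82), as did 1 of 3 smooth muscle markers. So did 1 of 6 adipocyte (median -1.36), 1 of 4 endothelium and 1 of 5 tendon markers, while 1 of 3 heart markers rose. Of all clusters 33.4% were called from the Pre to HiT, 14.9% down. With fast fiber markers as a covariate the number of members called was 5 between Pre and HiT, 9 between Fed and HiT and 8 between HiT and Mid. Over all clusters 1906 were then up and 1505 down from the Pre to HiT. From the Fed to HiT it was 2515 and 2216, and from the HiT to Mid 2138 and 2387. Apart from the fast fiber covariate, the part of these cell and fiber markers in the HiT differences was not tested. Red blood cell markers (4 of 5) were highest in Fed 2, at 13750 CPM, where *Casq1* was the lowest of the Fed libraries. With Mid 2, Fed 1 and Fed 2 set aside, a choice made after seeing the data, the counts were 8 from the HiT to Mid, 7 from the Fed to HiT, 3 from the Pre to Mid, 4 from the Mid to Post and 1 from the Fed to Mid. Over all clusters 2287 were then up and 2174 down from the HiT to Mid, and 1657 and 1360 from the Fed to HiT. From the Pre to Mid it was 1728 and 1415, from the Mid to Post 1831 and 1793, and from the Fed to Mid 1016 and 877. With all libraries it was 2507 and 2150 from the Fed to HiT and 1788 and 2009 from the Fed to Mid.

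Within a library, tags of the pumps, stores and inhibitor can be set against each other without scaling. *Atp2a1* exceeded *Atp2a2* by 4.0 to 5.43 times on average in the groups of experiment #1 and by 2.12 to 2.73 times in experiment #2. Single libraries of Mid ranged from 1.78 to 5.63, so that the groups could not be told apart by this ratio. The ratio of *Casq1* to *Casq2* was 5.21 ± 0.43 (SD, n = 4) in HiT, 7.06 ± 0.57 in Post, 8.03 ± 0.90 in Pre, 8.42 ± 0.69 in Dep, 8.92 ± 1.31 (n = 8) in Mid and 11.5 ± 1.9 (n = 4) in Fed. No HiT library reached the lowest library of another group, and no Fed library was below the highest Pre, Post or Dep library. The ratio in experiment #2 was 14.2 ± 1.6 (n = 2) in Pre, 16.8 ± 1.0 (n = 5) in Mid and 11.6 ± 1.0 (n = 3) in Post, with no overlap between groups.

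Per 1000 tags of the SERCA pumps together, there were 29.9 ± 2.4 (SD, n = 4) *Sln* tags in HiT, 17.8 ± 2.4 in Pre, 15.2 ± 3.1 in Post, 13.8 ± 5.9 (n = 8) in Mid, 11.1 ± 2.7 (n = 4) in Fed and 10.1 ± 2.4 in Dep. The lowest HiT library, at 27.3, was above the highest library of any other group of experiment #1, at 23.1 in Mid. The values in experiment #2 were 29.3 ± 6.5 (n = 2) in Pre, 19.4 ± 3.8 (n = 5) in Mid and 21.8 ± 3.4 (n = 3) in Post. These ratios are descriptions and were not tested.

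**Figure D4:**
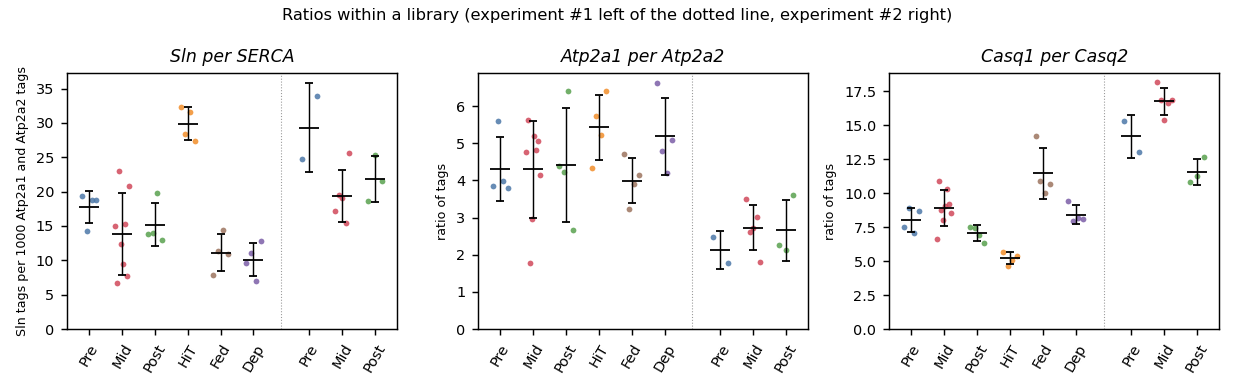
Ratios of tags within each library by group, with mean and SD as bars and a dotted line between experiment #1 (left) and experiment #2 (right): *Sln* tags per 1000 tags of both pumps, *Atp2a1* per *Atp2a2*, and *Casq1* per *Casq2*. HiT is highest for *Sln* per pump (27.3 to 32.3) and lowest for *Casq1* per *Casq2* (4.67 to 5.70) among the groups of experiment #1.

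The minor clusters were weak. The first 3, at chr7:126447582-126447711, chr7:126447110-126447556 and chr7:126447859-126448125, lay in the 3′ part of *Atp2a1*, near the 5′ end of a shorter annotated transcript, in an intron, in exon 19 and in exon 17 of the 23 exons of Atp2a1-201. Their group means were 3.85 to 20.1 CPM, and none of them was called in any of the comparisons above. The second *Pvalb* cluster, at chr15:78204085-78204279 in exon 1 of Pvalb-201, had 5.24 to 6.48 CPM in HiT, below all Pre libraries (10.7 to 15.2), and fell by 1.04 ± 0.24 (FDR 0.0016). From the HiT to Mid the main *Pvalb* promoter was 1.45 ± 0.50 higher (FDR 0.023), a call lost without Mid 2 or without HiT 2, 3 or 4 (FDR 0.0503 to 0.0797). It was 1.84 ± 0.56 lower in HiT than in Fed (Fed to HiT, -1.84, FDR 0.0098), a call lost without Fed 1 (-1.29, FDR 0.0712), which also ended the call of the second cluster (-0.58, FDR 0.0578). The second *Trdn* cluster, at chr10:33195944-33196247 in exon 8 of the 38 exons of Trdn-201, was at 4.95 to 14.04 CPM over all libraries.

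The partners of these genes were counted in 5 lists, taking the strongest cluster of each gene. In the list of triad and release genes (24 of 28 with a cluster) 1 rose and 10 fell from the Pre to Mid and 9 rose and 3 fell from the Mid to Post in experiment #1. In experiment #2 none rose and 6 fell, and then 7 rose and none fell. Of all clusters, 30.2% and 35.0% were called in these steps of experiment #1, and 9.74% and 16.4% in experiment #2. The medians were -0.19 and 0.22 in experiment #1 and -0.26 and 0.20 in experiment #2, beside 0.0057 and -0.014, and 0.0035 and -0.013, over all clusters. Compared with Pre, 11 were lower in Dep and none higher, 2 were higher and 13 lower in HiT, and 1 was higher and none lower in Fed. Over all clusters 25.8% (12.1% down), 33.4% (14.9% down) and 11.2% were called in these comparisons. With lane as a term, the Mid to Post calls over all clusters of experiment #2 went from 836 up and 936 down to 148 and 337. The genes of the 5 lists were not refitted with lane. Its part in their Post differences in experiment #2, here and below, was not tested.

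The triad genes that moved most included *Jph2*, the second junctophilin of the muscle. *Jph2* fell from the Pre to Mid by 0.66 ± 0.13 in experiment #1 (FDR 0.00029) and by 0.83 ± 0.14 in experiment #2 (FDR 0.0056), and rose from the Mid to Post by 0.80 ± 0.13 and 0.90 ± 0.12. *Jph1*, described above, was not called in the same Pre to Mid comparisons. *Stac3*, an adaptor of the voltage sensor, changed by -0.73 ± 0.09 and 0.92 ± 0.09 in experiment #1 and by -0.51 ± 0.12 (FDR 0.029) and 0.93 ± 0.11 in experiment #2. *Sypl2* (mitsugumin 29), a triad membrane protein, changed by -0.77 ± 0.11 and 0.62 ± 0.12, and by -1.04 ± 0.13 and 0.85 ± 0.12. *Cacnb1*, the beta subunit of the voltage sensor, fell from the Pre to Mid by 0.38 ± 0.08 and 0.62 ± 0.13 and was still lower in Post than in Pre in experiment #1 (-0.47 ± 0.10, FDR 0.012).

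**Figure D5:**
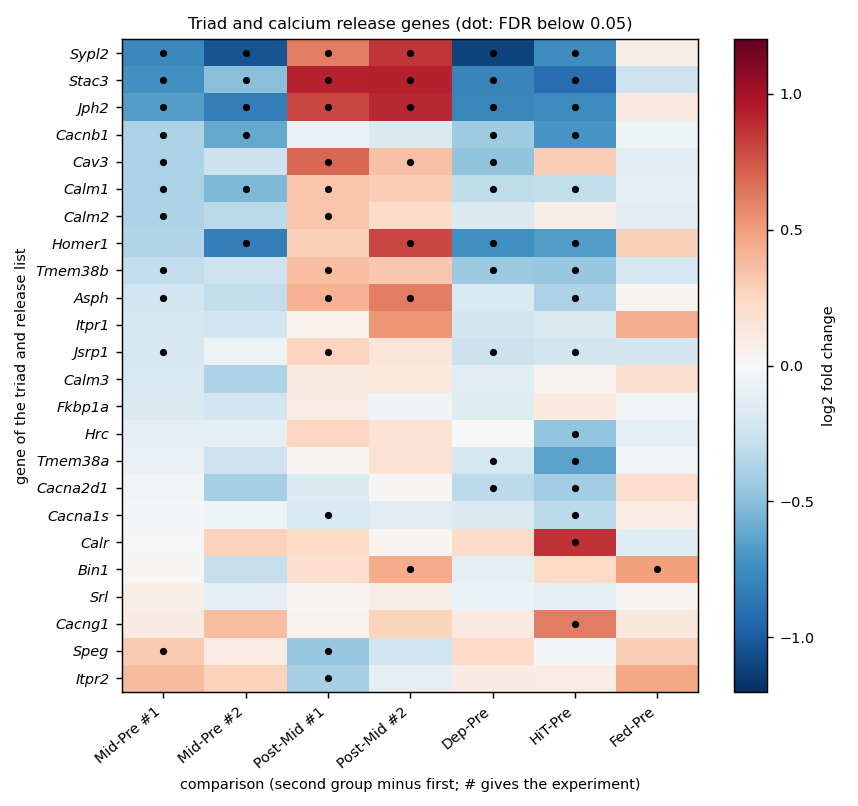
Log2 fold change (colour, second group minus first) of 24 genes of the triad and release list (rows) in 7 comparisons (columns, # for the experiment), with a dot for FDR below 0.05. *Sypl2*, *Stac3* and *Jph2* are dotted in both experiments for both steps, and Fed minus Pre has 1 dot, at *Bin1*.

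Of the SERCA regulators (9 of 11 with a cluster), none rose and 2 fell from the Pre to Mid in experiment #1, a smaller share than the 30.2% called among all clusters. In experiment #2 none rose and 1 fell, beside 9.74% of all clusters. From the Mid to Post 3 rose and 1 fell in each experiment, a larger share than the 35.0% and 16.4% of all clusters. *Mrln*, which encodes myoregulin, a micropeptide inhibitor of SERCA like sarcolipin, fell from the Pre to Mid by 0.70 ± 0.10 (FDR 1.8e-05) and further from the Mid to Post by 0.32 ± 0.11 (FDR 0.023). In experiment #2 it fell by 0.52 ± 0.13 (FDR 0.033) and by 0.66 ± 0.12 (FDR 0.0044), so that *Mrln* was lower in Post than in Pre in both experiments (-1.02 ± 0.12 and -1.18 ± 0.15). It was the only gene of its list called between Pre and Post in either experiment. *Mrln* was also lower than in Pre in HiT (-0.63 ± 0.12) and in Dep (-0.56 ± 0.12), but was not called from the Pre to Fed (-0.09 ± 0.12, FDR 0.70). *Ppp1r3a*, the glycogen-targeting subunit of protein phosphatase 1, changed by -0.44 ± 0.10 and 0.40 ± 0.10 in both steps of experiment #1. *Camk2a*, a calcium-calmodulin kinase, rose from the Mid to Post by 0.43 ± 0.16 (FDR 0.034) and, in experiment #2, by 0.73 ± 0.09 (FDR 0.00032).

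Of the calcineurin and NFAT genes (11 of 12 with a cluster), 2 rose and none fell from the Pre to Mid, and 1 rose and 3 fell from the Mid to Post in experiment #1. Among all clusters 30.2% and 35.0% were called, so that the share was lower in the first step and about the same in the second. *Rcan1*, a calcineurin inhibitor that is itself a calcineurin target, rose by 0.69 ± 0.22 (FDR 0.018) and fell by 1.27 ± 0.22 (FDR 9.4e-05). Between Pre and Mid of experiment #2 its difference was 0.42 ± 0.27 (FDR 0.38), and between Mid and Post it fell by 1.71 ± 0.25 (FDR 0.0012). *Rcan1* was also higher in Dep than in Pre, by 1.12 ± 0.25 (FDR 0.0014). *Nfatc1*, the NFAT of slow fiber programmes, rose from the Pre to Mid by 0.37 ± 0.10 (FDR 0.0048) and by 0.49 ± 0.10 (FDR 0.011).

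Of the genes of store-operated entry and export (7 of 15), 1 rose and none fell from the Pre to Mid in experiment #1, and from the Fed to HiT 1 rose and 3 fell, beside 30.2% and 43.2% called among all clusters. *Stim1*, the calcium sensor of the reticulum, was lower in HiT than in Fed (-0.76 ± 0.09, FDR 7e-07) and than in Pre (-0.35 ± 0.09, FDR 0.0043). *Orai1*, its plasma membrane channel, fell from the Mid to Dep by 0.58 ± 0.12 (FDR 0.015), the single call of the 5 lists in that comparison. Of the mitochondrial calcium genes (7 of 9), none was called from the Pre to Mid in either experiment. From the Pre to HiT none rose and 2 fell, with 33.4% of all clusters called and 14.9% down. These were *Letm1* (-0.48 ± 0.12, FDR 0.0031) and *Vdac1* (-0.36 ± 0.07, FDR 0.00038).

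Among 9441 clusters of other genes with a mean of at least 1 CPM, those whose log2 level over the 28 libraries of experiment #1 was most like *Sln* belonged to *Apobec2* (Pearson r 0.80), *Chrna1* (0.74), *Mlx* (0.73), *Ywhaz* (0.73) and *Ran* (0.73). In the 10 libraries of experiment #2 the values were 0.79, 0.42, 0.47, -0.098 and -0.022, so that of these 5 *Apobec2* was as high there. For *Atp2a1* they were *Aldoa* (0.79), a glycolytic enzyme, *Tpi1* (0.79), another, *Fahd2a* (0.78), *Cd24a* (0.77) and *Ppt2* (0.76), with 0.72, 0.41, 0.42, 0.34 and 0.21 in experiment #2. These values are descriptions over libraries that share groups and scaling.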

How the data were processed

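Soleus nAnT-iCAGE libraries of 38 mice were used. Per the labels and the study's methods, the authors mapped reads to mm10 with BWA and HISAT2, took 5′ ends as start sites and clustered them with PromoterPipeline. The deposited counts are raw tags per cluster and library. The authors also gave TPM values, in which tags are scaled to the total of each library, and these served here only to rank the clusters of a gene. Groups came from the sample titles. All per-sample columns were used.

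Clusters were matched to GENCODE vM21 within 500 bp. Counts of 10776 (experiment #1) and 10816 (experiment #2) clusters with any tag were fitted with edgeR 4.0.16 in R 4.3.3 (TMM, quasi-likelihood F test, group as the only term), and 10819 in a fit of both experiments. FDR was Benjamini-Hochberg over all clusters, and SE was the absolute log2 fold change divided by the root of F. Intervals of 95% assume a normal error. Scripts were tested on simulated data for the Pre to Mid comparison: of 100 clusters changed by a log2 fold change of 1, 99% were recovered in experiment #1 (10770 clusters) and 50% in experiment #2 (10815), and of 100 changed by 0.5, 20% and 3%. Libraries of a group differed by more than sampling noise in all 72 pairs (lowest chi-square per cluster 12.4).

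The members and gene lists were chosen with earlier results of these data known. Genes named are all members, up to 4 genes per list and comparison with the largest called change, and the 5 clusters most like *Sln* and *Atp2a1*. Alternatives were the likelihood ratio test, DESeq2 1.42.0, other scalings, filterByExpr, only the compared groups, all 38 libraries together, the replicate number or sequencing lane as a term, fast fiber markers as a covariate and each library left out in turn.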

Additional observations from a re-analysis of the deposited data

Results flagged for a closer look

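Of 98 combinations of a cluster and a group of 4 to 8 libraries, 8 had a library far from the others of its group by Dixon's ratio, and chance flags about 1 group in 20. In experiment #2, *Pvalb* of Mid 12 was at 356 CPM (the other Mid libraries 150.2 to 192), *Casq1* of Mid 10 at 912 (731 to 779), *Ryr1* of Mid 9 at 1320 (879 to 975) and the second *Atp2a1* cluster of Mid 12 at 14.3 (8.28 to 9.36). In experiment #1, *Casq1* of Fed 2 was at 753 CPM (the other Fed libraries 913.5 to 940.3), *Jph1* of Fed 1 at 163 (128 to 130), *Trdn* of Fed 1 at 305 (253 to 262), and the second *Pvalb* cluster of Mid 2 at 18.5 (6.95 to 10.1). Fed 1 and Mid 2 had the highest sums of the fast IIb fiber list in experiment #1, mainly *Tnnt3*, and Fed 2 that of the red blood cell markers. Their part in these values was not tested.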

How the results depend on the processing

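The 37 called changes of members in 13 comparisons were refitted 720 times; 667 fits kept direction and call, 53 lost the call and 0 changed sign. In 24 of the 37 the call held whichever single library was left out. With 1 library left out in turn, the member counts ranged from 1 to 3 for the Pre to Mid, 2 to 5 for the Mid to Post and 0 for the Pre to Post in experiment #1, 1 to 3, 1 to 2 and 0 in experiment #2, 7 to 9 from the HiT to Mid, 1 to 2 from the Fed to Mid, 0 to 1 from the Mid to Dep, 7 to 10 from the Fed to HiT, 4 to 7 from the Pre to HiT, 0 to 4 from the Pre to Fed and 0 to 3 from the Pre to Dep. From the Mid to Post in experiment #1 DESeq2, the likelihood ratio test and the fast fiber covariate each called 5. Over all clusters they in turn gave 1950 up and 2045 down, 1821 and 1898, and 1915 and 1944. In experiment #2 the fit of only the compared groups and that with lane as a term each called 1. Over all clusters they gave 758 and 853, and 148 and 337. From the Pre to Fed DESeq2 and the likelihood ratio test called 2, and the fast fiber covariate, upper-quartile scaling and only the compared groups 1 each. Over all clusters these fits in turn gave 756 up and 803 down, 658 and 585, 680 and 591, 579 and 681, and 413 and 218. From the Pre to Post in experiment #1 DESeq2 called 2. The likelihood ratio test, the covariate, only the compared groups and all 38 libraries called 1 each. Over all clusters these fits in turn gave 175 up and 135 down, 137 and 109, 136 and 93, 185 and 90, and 427 and 304. For experiment #2 the same fit of all 38 libraries called 1. From the Fed to Mid 1 was called without TMM (509 up and 1672 down over all clusters) and with 3 libraries set aside (1016 and 877). The causes were not tested. The 5 further comparisons used for the order of *Sln* levels were not refitted. Single libraries that moved a count by over 1.5 times were Mid 6 (5 from the Mid to Post), Pre 2 (1 from the Pre to Mid), Pre 3 (1 from the Pre to Dep), Fed 1 (1 from the Fed to Mid), Fed 3 (4 from the Pre to Fed) and Dep 3 (1 from the Mid to Dep, 0 from the Pre to Dep) in experiment #1, and in experiment #2 Pre 5 or 6 (1 from the Pre to Mid) and any library but Mid 10 (1 from the Mid to Post). Calls over all clusters moved in such refits as well. From the Pre to Fed they were 634 up and 573 down, and 1024 and 949 without Fed 3. From the Fed to Mid they were 1788 and 2009, and 1439 and 1583 without Fed 1. From the Pre to Dep they were 1479 and 1304, and 1348 and 1196 without Dep 3. For the Mid to Post in experiment #1 they were 1881 and 1890, and 2085 and 2079 without Mid 6. The *Sln* difference from the Mid to Post, not called, changed sign to -0.013 with 3 libraries set aside and -0.12 with lane as a term, and with 1 library left out ranged from -0.115 to 0.20 in experiment #1 and from -0.054 to 0.25 in experiment #2.

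The replicate numbers shared by groups do not pair the mice: of 60 same-number pairs 16 had a correlation of deviations over 0.1 (range -0.63 to 0.46), and 5 of 28 libraries correlated best with their own number. With the replicate block, 1 member was called from the Mid to Dep and 1 from the Pre to Fed (0 without it in both). Over all clusters 218 were then up and 189 down from the Mid to Dep (125 and 94 without it). From the Pre to Fed it was 544 and 456 (634 and 573 without it). The *Trdn* call from the Pre to HiT was lost with the block (FDR 0.0526). In experiment #2 the replicate block called 0 from the Pre to Post. The windows of 100 and 1000 bp gave 12 and 17 clusters of the same 9 genes.

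Scaling by library size alone moved the median of all clusters to -0.21 from the Fed to HiT, -0.18 from the Pre to Dep, -0.13 from the Pre to HiT, -0.12 from the Fed to Mid and 0.11 from the HiT to Mid. *Casq2* from the Fed to HiT was then 0.36 (FDR 0.15). It also turned the split of all calls, for example to 701 up and 2260 down from the Fed to HiT (2507 and 2150 with TMM). With 2 Pre libraries and fewer tags, experiment #2 recovered fewer changes in the simulation, which gave every cluster the same spread. From the Pre to Mid the SE was smaller in experiment #2 for *Casq1*, *Casq2* and *Sln*. It was larger there for *Atp2a2*, *Ryr1* and *Trdn*.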

Other observations

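The deposited peak position appears offset. Over clusters inside a RefSeq promoter of their gene, the step from a pyrimidine to a purine that is usual at start sites was found in 22.7% at the deposited peak and in 78.2% (3634 of 4645) at 2 bases downstream, with 1 and 3 bases at 3.72% and 4.49%. Of the distances between peak and nearest annotated 5′ end, -2 bp was the most frequent between -5 and 5 bp, with 1394 clusters, against 473 at 0 bp. Positions of single starts above are those of the table unless stated, and the counts per cluster do not depend on this.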
